A study of Rattus norvegicus with 6 samples.

Results

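The AP-1 transcription factor genes Fos, Fosb, Fosl1, Fosl2, Jun and Junb and the immediate early genes Egr1, Ier2, Ier3 and Myc were followed in liver RNA. They were chosen by symbol. All 10 were found among the 32930 gene rows of the deposited table, each on 1 row, and all 10 passed the expression filter that left 18455 genes for testing. The libraries came from 6 animals on a high-fat diet. In the HFD group, 3 animals received the vehicle, 0.5% CMC-Na, and in the HTG group 3 animals were treated with the herbal Huazhuo Tiaozhi granule (written HCG in a treatment label). The labels give 12 weeks of intervention and no age. In the paper's rat experiment the high-fat diet lasted 12 weeks and gavage began later, so treatment there was shorter than the diet. The labels name rats, while the methods for RNA sequencing name C57BL/6 J mice and the table holds mouse Ensembl genes. The rows were read as mouse genes, and the species of the animals was not resolved here.

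Immediate early genes are transcribed within minutes of a growth factor, cytokine or stress signal, without the need for new protein. FOS and JUN family proteins pair through leucine zippers to form AP-1, which binds short DNA elements named TRE and CRE, while EGR1 binds through zinc fingers and MYC pairs with MAX. Upstream, MAP kinases act on factors such as ELK1 and SRF, the latter at a CArG box, and phosphatases of the DUSP family switch the kinases off. In liver these genes are known for their quick response to partial hepatectomy, feeding, inflammation and tissue handling.

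The promoters of Fosl1, Junb and Ier2 are shown because these members differed in opposite directions or in a single library. The stretches are the 250 bases before the gene start in the RefSeq table of the rat assembly GRCr8, the organism of the labels, and not of the mouse gene rows. Capitals mark a match to the TRE (TGACTCA), the CRE (TGACGTCA), TATAAA or the CArG box, searched on both strands.
Fosl1, chr1:212183635-212183884, plus strand: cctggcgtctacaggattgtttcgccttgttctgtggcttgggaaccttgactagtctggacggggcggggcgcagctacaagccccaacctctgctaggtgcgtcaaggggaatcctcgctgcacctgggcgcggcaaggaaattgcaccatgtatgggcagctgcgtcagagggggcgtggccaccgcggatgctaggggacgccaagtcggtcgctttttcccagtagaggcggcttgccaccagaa
Junb, chr19:40080876-40081125, plus strand: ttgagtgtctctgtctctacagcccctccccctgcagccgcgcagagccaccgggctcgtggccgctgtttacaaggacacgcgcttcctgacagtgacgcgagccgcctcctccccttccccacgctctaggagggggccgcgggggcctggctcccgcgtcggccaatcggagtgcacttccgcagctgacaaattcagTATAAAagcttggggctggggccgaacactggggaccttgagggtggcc
Ier2, chr19:40399123-40399372, plus strand: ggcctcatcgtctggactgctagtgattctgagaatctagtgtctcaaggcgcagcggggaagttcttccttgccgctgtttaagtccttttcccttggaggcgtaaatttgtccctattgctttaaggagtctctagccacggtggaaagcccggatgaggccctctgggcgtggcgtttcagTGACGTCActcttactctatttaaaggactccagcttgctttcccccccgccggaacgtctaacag
The CRE of Ier2 lies 66 to 59 bases before the start and reads the same on both strands, and TATAAA of Junb lies 49 to 44 bases before it. The Fosl1 stretch held none of the 4 motifs. Entries were found for 6 of the 10 members (Fosb, Fosl1, Fosl2, Junb, Egr1 and Ier2), and no match overlapped another in the 3 stretches shown. Among these 6, the CRE was in 1, the CArG box in 1 (Egr1), TATAAA in 2 and the TRE in 0, and among all 33469 promoters of this length the shares were 1.59%, 1.5%, 12.9% and 4.05%. A match is a description of the letters and not a shown binding site.

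The deposited counts summed to between 50648778 and 90563477 per library, with HTG library 2 the deepest and HTG library 3 the shallowest. The low counts favoured steps of 4: the value 4 occurred 6450 times, 3 occurred 2549 times and 5 occurred 1757 times, although 1 (5104 times) and 2 (4229 times) were also common. A fragment was therefore taken as 4 counts, which is an assumption, and 3 fragments, the limit that an empty gene allows, as 12 counts, or 0.123 to 0.256 CPM (counts scaled to library size, after edgeR's TMM scaling between libraries). This limit covers counting error only, and a smaller unit would lower it. The hepatocyte markers, Alb and Ttr among them, summed to 90736 to 104160 CPM in HFD libraries and 91741 to 104760 CPM in HTG libraries, and 3 of the 4 exocrine pancreas markers listed were at or under the limit everywhere. Markers of stellate cells summed to 67.5 to 141 CPM in HFD libraries and 74.8 to 88.9 CPM in HTG libraries, and those of cholangiocytes to 85.3 to 106 CPM and 59.5 to 131 CPM. Spp1 made up most of the cholangiocyte sum, with 76.9 to 96.4 CPM and 48.5 to 121 CPM. In each of these lists 1 gene was higher (Des of 8, Sox9 of 5) and 1 lower (Reln, Epcam) in the HTG group. The threshold was an unadjusted p under 0.05 in edgeR's quasi-likelihood test, which 12.3% and 12.4% of all genes tested passed.

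Per transcript length, Junb and Ier2 were the most abundant members. Over the 6 libraries, the median FPKM (fragments scaled by transcript length and library size) was 27.2 for Junb, 20.4 for Ier2, 13.7 for Egr1 and 11.5 for Jun. It was 5.16 for Myc, 3.26 for Fos, 3.21 for Ier3, 1.64 for Fosl2, 0.365 for Fosb and 0.055 for Fosl1. Neighbours in this order overlapped in their ranges, except that Fosl2, with 1.2 to 1.96 FPKM, lay above Fosb, with 0.21 to 0.48 FPKM.

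Jun and Fosl1 were lower in HTG livers than in HFD livers, Junb was higher, and the other 7 members did not pass an unadjusted p of 0.05 in edgeR's quasi-likelihood test. The 2 lower members, 2 of 10, stood against 12.4% of all genes tested that were lower at this threshold, and the 1 higher member against 12.3% that were higher. Together the 3 members stood against 24.7% of all genes tested, so their number was close to the background. Fosl1 passed the expression filter only through the HFD group, where it was high, so its call adds no support to these counts. At an adjusted p under 0.05 (Benjamini-Hochberg over all genes tested), 0 of the 10 were called by edgeR, against 0.0108% of all genes. DESeq2 gave Fosl1 no adjusted p. Of the other members it called 2, Jun and Junb, while it called 1109 of the 18455 genes fitted higher and 1358 lower. Its calls of members therefore do not stand out from its calls over all genes. The median log2 fold change of the members was 0.06, against 0.03 (rounded from 0.025) over all genes tested, with 5 members above 0 and 5 below. Each p-value rests on 3 animals against 3, where an exact permutation test of a single gene cannot go below 0.1. In bulk liver, fewer cells of a type and less RNA per cell cannot be told apart.

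**Figure D1:**
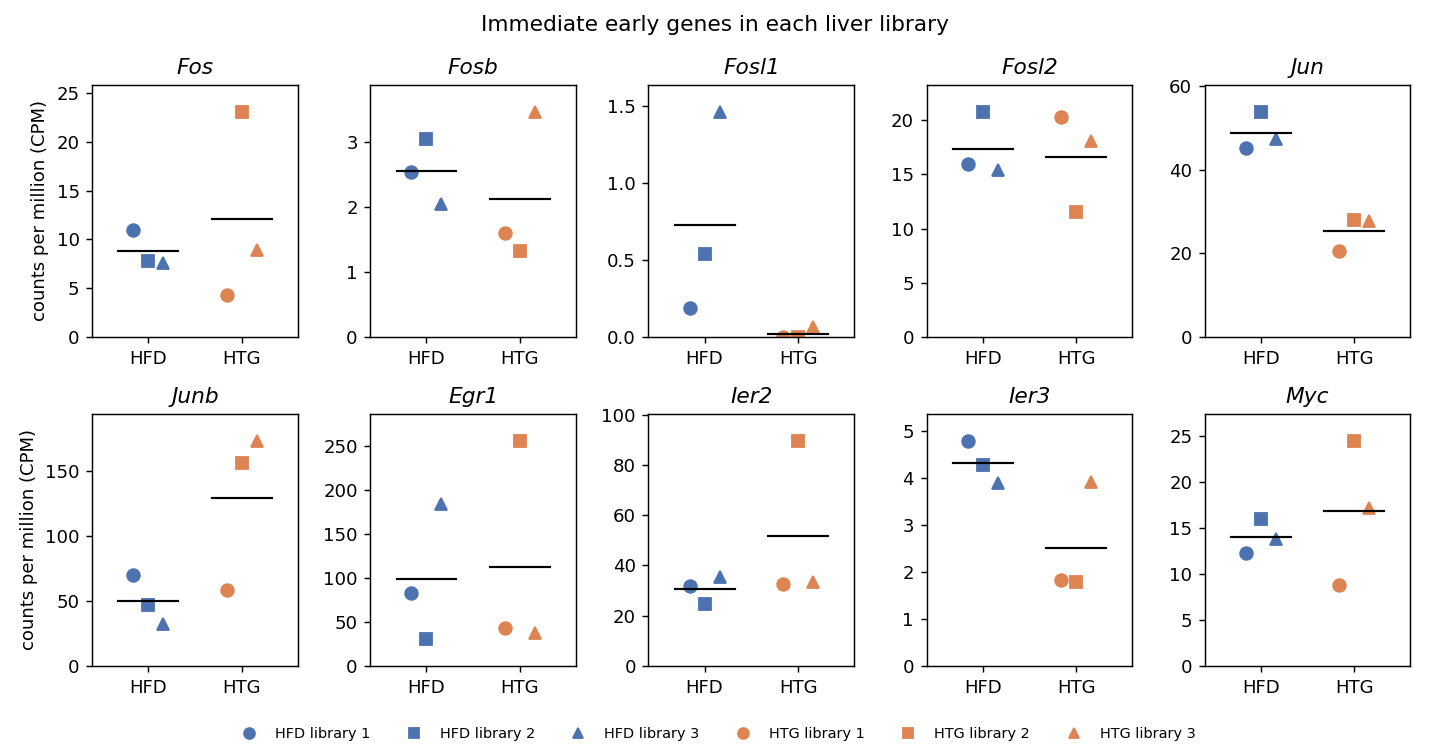
Counts scaled to library size (CPM, linear axes from 0, one scale per gene) of the 10 genes in each library, with circles, squares and triangles for libraries 1, 2 and 3 and a black line at the group mean. Jun separated the groups, and in Fos, Egr1, Ier2 and Myc the square of HTG library 2 was the highest point.

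Jun (ENSMUSG00000052684, chromosome 4, 94937271 to 94940459 as the table lists it, minus strand), which encodes the central partner of AP-1, was the member with the smallest p. It had 45.3, 53.9 and 47.4 CPM in HFD libraries 1, 2 and 3 and 20.5, 27.9 and 27.8 CPM in HTG libraries 1, 2 and 3. Every HTG library lay below every HFD library, and the highest HTG value was 0.519 times the highest HFD value. The groups did not overlap in 2 members, Jun and Fosl1, both lower in HTG, against 15.5% of all genes tested that lay lower without overlap. Fosl1 passed the expression filter only through its HFD libraries, so its place in this count adds no support. Higher without overlap were 0 members, against 16.5% of all genes tested, and in either direction the share of all genes was 32.1%. The HFD mean was 48.8 ± 4.48 CPM and the HTG mean 25.4 ± 4.23 CPM (SD, n = 3 libraries each). The log2 fold change was -0.94 (SE 0.18, unadjusted p = 0.000724, adjusted p = 0.0582, edgeR's quasi-likelihood test). In the authors' FPKM, Jun had 14.2, 15.3 and 14.8 in the HFD group and 6.00, 8.86 and 7.57 in the HTG group. Over 15 alternative fits Jun kept its direction and an unadjusted p under 0.05, its log2 fold change stayed between -1.02 and -0.85, and its adjusted p was under 0.05 in 5 (from 0.000428 to 0.188). The antisense gene Junos overlaps Jun by 689 bases. It had 0.345 to 0.587 CPM in HFD libraries and 0.475 to 1.37 CPM in HTG libraries, and whether the counting used strand is not given in the sources used here.

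Fosl1 (ENSMUSG00000024912, chromosome 19, 5497575 to 5505974 as listed, plus strand) encodes the FOS-related antigen FRA-1. It was the scarcest member, with 13, 36 and 105 counts in HFD libraries 1, 2 and 3 and 0, 0 and 3 counts in HTG libraries 1, 2 and 3. All HTG libraries were under the limit of 12 counts, and HFD library 1 was just above it. The HFD mean of Fosl1, 0.731 CPM (SD 0.657, n = 3 libraries), was 4.11 times that assumed limit, taken per HTG library and averaged. Without HFD library 3, its highest library, the HFD mean was 2.06 times the limit. These ratios leave out the spread of the HFD libraries, so they do not set a smallest fold difference. The unadjusted p of Fosl1 was 0.00439 and the adjusted p 0.0731 in edgeR's quasi-likelihood test. Because Fosl1 passed the expression filter only through its HFD libraries, its p-values describe these counts and are not independent support. Fosl1 was fitted in 11 of the 15 alternatives, which reuse the same libraries, and had an unadjusted p under 0.05 in each of these 11. The highest of them, 0.0336 in the same test, came without HFD library 3. Ccdc85b, on the opposite strand, overlaps this row by 2767 bases and had 6.03 to 12.9 CPM in the HFD group and 12.1 to 13.5 CPM in the HTG group. The summed CPM of 11 leukocyte and Kupffer cell markers was 567 to 833 in HFD libraries and 415 to 618 in HTG libraries. Of the 11, 2 (Adgre1 and Lyz2) were lower at an unadjusted p under 0.05, against 12.4% of all genes tested, and none was at 0 in a whole group. The part of this summed CPM in the Jun and Fosl1 results was not tested.

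Junb (ENSMUSG00000052837, chromosome 8, 85701113 to 85705347 as listed, minus strand), whose protein competes with JUN for FOS partners, went the opposite way. Its level was 70.2, 46.5 and 32.4 CPM in HFD libraries 1, 2 and 3 and 58.7, 156 and 173 CPM in HTG libraries 1, 2 and 3. HTG libraries 2 and 3 were above every HFD library, while HTG library 1 lay below HFD library 1, so the groups overlapped. The group means were 49.7 ± 19.1 and 129 ± 61.6 CPM (SD, n = 3 per group). The log2 fold change was 1.38 (SE 0.43, unadjusted p = 0.0114, adjusted p = 0.102, edgeR's quasi-likelihood test). It stayed between 1.11 and 1.71 in all 15 alternatives, with an unadjusted p of at most 0.0423 and an adjusted p from 0.0106 to 0.282. The adjusted p was under 0.05 in DESeq2 and, at 0.0473, in edgeR without HTG library 1. Prdx2 overlaps Junb by 351 bases on the opposite strand, with 109 to 117 CPM in the HFD group and 91.7 to 132 CPM in the HTG group. The markers of sinusoidal endothelial cells summed to 74.3 to 150 CPM in HFD libraries and to 134 to 197 CPM in HTG libraries. Of these, 1 of 6 (Stab1) was higher at an unadjusted p under 0.05, against 12.3% of all genes tested. The part of these markers in the Junb result was not tested.

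Fos, Egr1, Ier2 and Myc shared a single library as their highest, HTG library 2. It was the highest of the 6 libraries in these 4 of the 10 members, against 21.9% of all genes tested. HTG library 2 was also the deepest library and had the lowest summed CPM of 6 heat shock genes, 965 against 1358 to 1846 in the other 5. Most of that sum was Hspa8, at 912 CPM in HTG library 2. Hspb1 did not follow the sum and was lowest in HFD library 3, at 4.08 CPM, while the other genes of the list were lowest in HTG library 2. The part of these features was not tested.

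Fos (ENSMUSG00000021250, chromosome 12, 85520664 to 85524047 as listed, plus strand) had 10.95, 7.78 and 7.63 CPM in HFD libraries 1, 2 and 3 and 4.26, 23.1 and 8.94 CPM in HTG libraries 1, 2 and 3. The HTG group thus held both the highest and the lowest library. Its log2 fold change was 0.46 (SE 0.52, adjusted p = 0.620, edgeR's quasi-likelihood test). Without HTG library 2 the log2 fold change was -0.42 (SE 0.37), so the sign of the difference rested on that library.

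Egr1 (ENSMUSG00000038418), a zinc finger factor induced through SRF, was the most variable member apart from Fosl1. It had 82.7, 31.0 and 184 CPM in HFD libraries 1, 2 and 3 and 42.6, 256 and 37.6 CPM in HTG libraries 1, 2 and 3. HFD library 3 and HTG library 2 were both more than 2-fold above the rest, 1 in each group, and the highest library was 8.25 times the lowest. The log2 fold change was 0.18 (SE 0.82, adjusted p = 0.920, edgeR's quasi-likelihood test), and -1.31 (SE 0.65) without HTG library 2. It was -0.25 without HFD library 2 and 0.97 without HFD library 3, so its sign depended on several libraries. The summed CPM of 5 red cell markers, globin genes and Alas2, was also highest in these libraries, with 484 in HTG library 2 and 422 in HFD library 3 against 234 to 279 in the other 4. Alas2, the haem synthesis gene, did not follow the sum and was highest in HFD library 2, at 62.5 CPM. Their part in the Egr1 values was not tested.

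Ier2 (ENSMUSG00000053560, chromosome 8, 85387960 to 85389483 as listed, minus strand) encodes a small nuclear regulator of transcription. It had 31.8, 24.6 and 35.5 CPM in HFD libraries 1, 2 and 3 and 32.5, 89.5 and 33.5 CPM in HTG libraries 1, 2 and 3. Apart from HTG library 2, at 2.52 times the next library, all libraries lay between 24.6 and 35.5 CPM. The log2 fold change was 0.76 (SE 0.39, adjusted p = 0.270, edgeR's quasi-likelihood test), and 0.11 (SE 0.21) without HTG library 2. An unadjusted p under 0.05 was reached without HTG library 1 (0.045) and without HTG library 3 (0.0384) in edgeR's quasi-likelihood test, where HTG library 2 was 1 of 2 libraries in its group.

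Myc (ENSMUSG00000022346), a driver of growth and ribosome production, had 12.3, 15.9 and 13.8 CPM in HFD libraries 1, 2 and 3. In HTG libraries 1, 2 and 3 it had 8.83, 24.5 and 17.2 CPM. As with Fos, the lowest library and the highest library were both in the HTG group. The log2 fold change was 0.27 (SE 0.33, adjusted p = 0.657, edgeR's quasi-likelihood test). It was -0.11 (SE 0.31) without HTG library 2 and 0.54 (SE 0.22, unadjusted p = 0.0484) without HTG library 1, in the same test.

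Ier3 (ENSMUSG00000003541), which encodes a regulator of apoptosis and ERK signalling, had 4.8, 4.29 and 3.90 CPM in HFD libraries 1, 2 and 3 and 1.82, 1.8 and 3.93 CPM in HTG libraries 1, 2 and 3. Only HTG library 3 reached the HFD range. The log2 fold change was -0.79 (SE 0.36, unadjusted p = 0.0579, adjusted p = 0.220, edgeR's quasi-likelihood test). Without HTG library 3 it was -1.25 (SE 0.31, unadjusted p = 0.00398, adjusted p = 0.184, same test). On all 6 libraries the unadjusted p of Ier3 was also under 0.05 in DESeq2 (0.0343), in edgeR without a filter (0.0454) and in both limma fits on FPKM (0.0124 and 0.0123), so that it passed in 5 of the 15 alternatives, with adjusted p-values from 0.0767 to 0.490 over all 15.

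The remaining FOS family members, Fosb and Fosl2, did not pass the test. Fosb (ENSMUSG00000003545), a close relative of Fos, had 2.54, 3.04 and 2.05 CPM in HFD libraries 1, 2 and 3 and 1.6, 1.32 and 3.46 CPM in HTG libraries 1, 2 and 3. Fosl2 (ENSMUSG00000029135), which encodes FRA-2, had 15.9, 20.7 and 15.4 CPM in the HFD libraries and 20.3, 11.5 and 18.0 CPM in the HTG libraries. In both genes the groups overlapped, and HTG library 2, the peak of Fos, Egr1, Ier2 and Myc, was the lowest library. Without HTG library 2 the log2 fold change of Fosl2 was 0.14, and without HFD library 2 it was 0.08. With all libraries the log2 fold changes of Fosb and Fosl2 were -0.27 (SE 0.41) and -0.06 (SE 0.24), with adjusted p-values of 0.727 and 0.900 in edgeR's quasi-likelihood test.

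**Figure D2:**
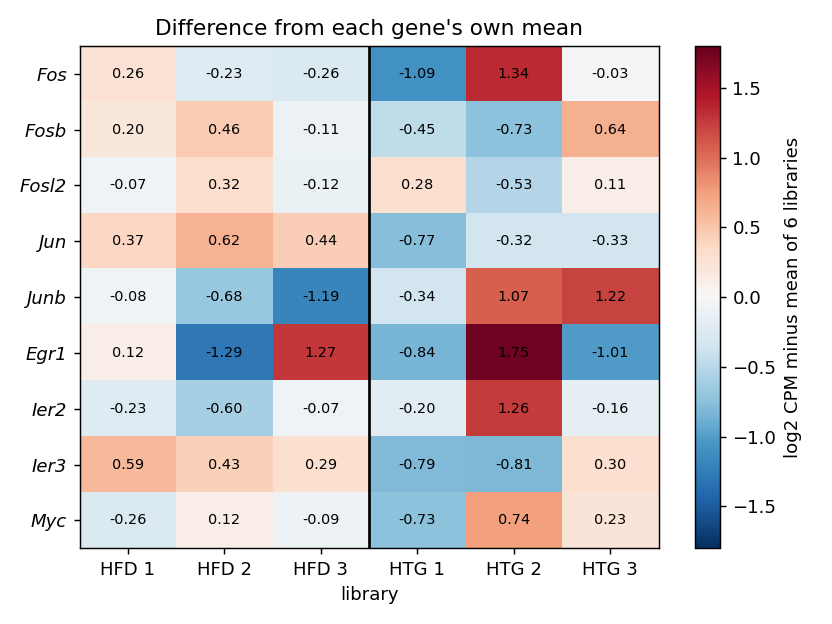
Difference of each gene's log2 CPM (prior count 2) from its own mean over the 6 libraries, in colour and as printed values, for 9 genes (Fosl1, near 0 counts in the HTG group, is left out). HTG library 2 stood at 1.34 for Fos, 1.75 for Egr1, 1.26 for Ier2 and 0.74 for Myc, and at -0.32 for Jun.

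Among themselves the members thus followed several patterns. Measured as the root mean square difference of their centred log2 CPM over the 6 libraries, the closest pairs were Fosb and Ier3 (0.30), Jun and Ier3 (0.35), Fosb and Fosl2 (0.40), and Fos and Myc (0.40). Jun differed by 0.83 from Fos and by 1.23 from Junb, its AP-1 partner and its relative. The spread within the groups also differed. The median member spanned 1.46 on the log2 CPM scale over the 3 HTG libraries and 0.52 over the 3 HFD libraries, against 0.61 and 0.66 for the median of all genes tested. In the HTG group, the range of Egr1 was wider than that of 94.7% of all genes tested, and that of Fos wider than 93.1%. In the HFD group these shares were 93.7% and 38.5%. The range of Jun was narrow in both, wider than 12.9% of genes in the HFD group and 35.7% in the HTG group (rounded from 35.65).

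**Figure D3:**
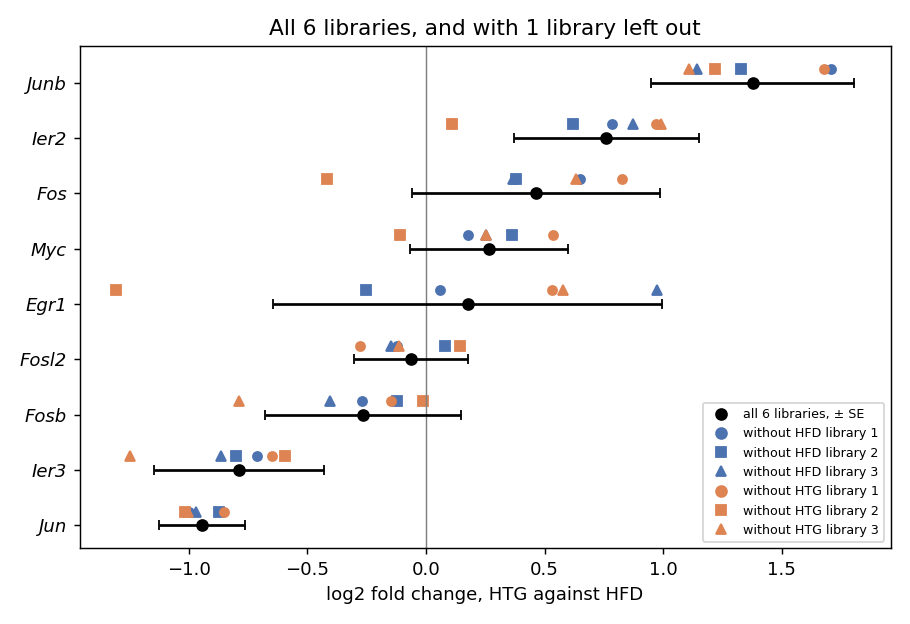
Log2 fold change of HTG against HFD for 9 genes in edgeR (Fosl1 is left out), with black points and bars for all 6 libraries ± SE and coloured points for the fits that left out 1 library. Jun and Junb kept their sides in all 6 such fits, and Fos, Egr1, Myc and Fosl2 crossed 0 without HTG library 2, as did Egr1 and Fosl2 without HFD library 2.

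Other genes had profiles over the 6 libraries close to those of the members, among 14369 genes tested with a mean of at least 50 counts. The profiles closest to Fos were those of Zc3h6 (0.09), Castor1 (0.19) and the lncRNA Gm43568 (0.25), with 5.30 CPM of Zc3h6 in HTG library 2 and 1.17 to 2.57 CPM in the other 5. Closest to Jun were Cd24a (0.09), Pabpc4 (0.11) and the pseudogene Gm6741 (0.13). Closest to Egr1 were Cyp2a22 (0.32), the lncRNA Gm15408 (0.46) and Eml6 (0.48). Closest to Myc were Prkar2b (0.10), F3 (0.12) and Gm37309 (0.15). These distances, root mean square differences in log2 CPM over the same 6 libraries, which differ in depth, carry no test.

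Of the MAP kinase and SRF axis upstream of these genes, 6 of the 25 genes tested were lower in the HTG group at an unadjusted p under 0.05 and 1 was higher, against 12.4% lower and 12.3% higher among all genes tested. The list's median log2 fold change was -0.17, against 0.03 over all genes tested. Among the lower genes were Mapk3, Mapk14, Map2k1, Map2k4 and Rps6ka3. Mapk3, which encodes ERK1, had 38.9 ± 0.875 CPM in the HFD group and 28.0 ± 0.59 CPM in the HTG group (SD, n = 3 libraries each), and Map2k1, which encodes the ERK kinase MEK1, had 43.5 ± 5.02 and 27.3 ± 3.95 CPM. Their log2 fold changes were -0.48 and -0.67, with adjusted p-values of 0.0948 and 0.0770 in edgeR's quasi-likelihood test. Mapk3, Map2k1 and Map2k4 kept an unadjusted p under 0.05 in all 15 alternatives, Rps6ka3 lost it without HTG library 2 (0.0648) and Mapk14 kept it in 7. The 1 higher gene, Map3k1, kept it in 9, and the list had 0 higher genes without HFD library 1, HFD library 2, HTG library 2 or HTG library 3.

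Among 19 feedback inhibitors, 4 were lower (Dusp4, Dusp8, Dusp16 and Nab1) and 1 was higher (Socs3) at an unadjusted p under 0.05, against 12.4% and 12.3% of all genes tested, with a median log2 fold change of -0.17. Without HFD library 1 the counts were 3 lower and 2 higher. Socs3, an inhibitor of cytokine signalling through STAT3, had 33.2, 31.3 and 12.4 CPM in HFD libraries 1, 2 and 3 and 53.1, 117 and 248 CPM in HTG libraries 1, 2 and 3. Every HTG library was above every HFD library, and the log2 fold change was 2.44 (SE 0.58, adjusted p = 0.0629, edgeR's quasi-likelihood test). Dusp4, a phosphatase of ERK and JNK, had 3.0 ± 0.846 and 0.655 ± 0.363 CPM, and Dusp8, a phosphatase of JNK and p38, 2.16 ± 1.67 and 0.485 ± 0.193 CPM, in the HFD and HTG groups (SD, n = 3 per group). Without HFD library 2, its highest library, the unadjusted p of Dusp8 was 0.0570 (edgeR's quasi-likelihood test).

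Of 14 other bZIP genes related to AP-1, 2 were lower and 0 higher at an unadjusted p under 0.05 in edgeR, against 12.4% and 12.3% of all genes tested. These counts turned to 1 lower and 2 higher without HFD library 1, to 2 lower and 1 higher without HTG library 1 and to 1 lower and 0 higher without HTG library 3. The list's median log2 fold change was 0.09. Maff, a small MAF protein without a transactivation domain, had 6.03 ± 1.6 and 2.79 ± 0.727 CPM in the HFD and HTG groups (SD, n = 3 per group). Atf3, a stress-induced partner of JUN, had 13.8, 5.40 and 7.45 CPM in HFD libraries 1, 2 and 3 and 4.85, 4.65 and 3.20 CPM in HTG libraries 1, 2 and 3. Its groups did not overlap. With HFD library 1 left out, the unadjusted p of Atf3 was 0.0901, and with HTG library 3 left out 0.0661 (edgeR's quasi-likelihood test). Mafg, with the next smallest p, had 99.3 ± 10.7 and 130 ± 19.1 CPM (SD, n = 3 per group) and did not pass.

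Among 30 further immediate early genes, 29 were tested, of which 3 were lower (Ccn2, Klf6 and Sgk1) and 4 higher (Ier5, Ier5l, Zfp36l1 and Gadd45a) at an unadjusted p under 0.05, against 12.4% and 12.3% of all genes tested, with a median log2 fold change of -0.14. The 4 higher genes became 1 without HFD library 1 or HFD library 2 and 2 when HFD library 3, HTG library 2 or HTG library 3 was left out. Ccn2, the connective tissue growth factor, had 6.50, 6.27 and 4.87 CPM in HFD libraries 1, 2 and 3 and 3.34, 2.37 and 1.0 CPM in HTG libraries 1, 2 and 3, without overlap. Klf6, a zinc finger factor, had 15.2 ± 0.189 and 10.1 ± 1.83 CPM, and Ier5l 0.533 ± 0.154 and 1.18 ± 0.213 CPM (HFD and HTG, SD, n = 3 libraries each). Ccn2 had a log2 fold change of -1.39 and Klf6 of -0.59, with adjusted p-values of 0.0958 and 0.107 in edgeR's quasi-likelihood test, and both kept an unadjusted p under 0.05 in all 15 alternatives. Sgk1 kept it in 10 of 15, Ier5 in 11, Gadd45a in 9 and Zfp36l1 in 5, and Ier5l in 9 of the 13 fits that held it. Without HTG library 2 the log2 fold change of Gadd45a was 0.53 (unadjusted p = 0.246, edgeR's quasi-likelihood test). HTG library 2 was the highest library in 7 of the 29, or 24.1%, near the 21.9% of all genes tested.

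In the network of MYC relatives, 3 of 12 genes were lower (Mycl, Mycn and Mxi1) and 1 was higher (Mlxipl), at an unadjusted p under 0.05, against 12.4% and 12.3% of all genes tested, with a median log2 fold change of 0.09. Without HFD library 2 the counts were 2 lower and 2 higher. Mycl and Mycn are the MYC paralogs. Mycn had 3.47 ± 1.72 and 1.10 ± 0.279 CPM in the HFD and HTG groups (SD, n = 3 per group), and its log2 fold change was -1.65 (adjusted p = 0.0777, edgeR's quasi-likelihood test). That of Mycl was -1.79 (adjusted p = 0.0538, same test). The difference between these paralogs and Myc was not tested. Mlxipl, which encodes the glucose-responsive factor ChREBP, had 325, 287 and 461 CPM in HFD libraries 1, 2 and 3 and 604, 1075 and 939 CPM in HTG libraries 1, 2 and 3, a log2 fold change of 1.29 (SE 0.29, adjusted p = 0.0613, edgeR's quasi-likelihood test).

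Of 20 genes known as AP-1 targets, 18 were tested, 5 were lower (Ptgs2, Plau, Plaur, Hmox1 and Cd44) and 1 was higher (Fst) at an unadjusted p under 0.05, against 12.4% and 12.3% of all genes tested. The 5 lower genes became 3 without HFD library 1 or HFD library 3 and 2 without HTG library 2, and the higher count became 0 without HTG library 3 or any 1 of the HFD libraries. In 15 of the 18 the log2 fold change lay below 0, with a median of -0.50, and among all 18455 genes tested 8933 lay below 0, with a median of 0.03. Plau, the urokinase gene, had 2.69, 2.47 and 4.22 CPM in HFD libraries 1, 2 and 3 and 1.84, 1.04 and 0.769 CPM in HTG libraries 1, 2 and 3, without overlap, and was called in all 13 alternatives that held it. Hmox1, which encodes haem oxygenase 1, had 67.2 ± 5.33 and 46.4 ± 11.3 CPM in the HFD and HTG groups (SD, n = 3 per group). Its unadjusted p was between 0.0710 and 0.111 (edgeR's quasi-likelihood test) without HFD library 1, HFD library 2, HTG library 2 or HTG library 3. Ptgs2, the inducible cyclooxygenase, was at 0.117 CPM in HFD library 1, under that library's limit, and at 10.1 and 9.43 CPM in HFD libraries 2 and 3. In HTG libraries 1, 2 and 3 it had 0.180, 0.133 and 0.427 CPM, all above HFD library 1. Its groups thus overlapped, and its higher HFD mean rested on HFD libraries 2 and 3. Cd44 kept its call in 3 of 15 alternatives and Fst in 8. Mmp3 was at 0 counts in every library. Il6 had 0, 4 and 12 counts in HFD libraries 1, 2 and 3 and 0 in every HTG library, all at or under the limit of 12 counts, so no difference was detectable at this depth.

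**Figure D4:**
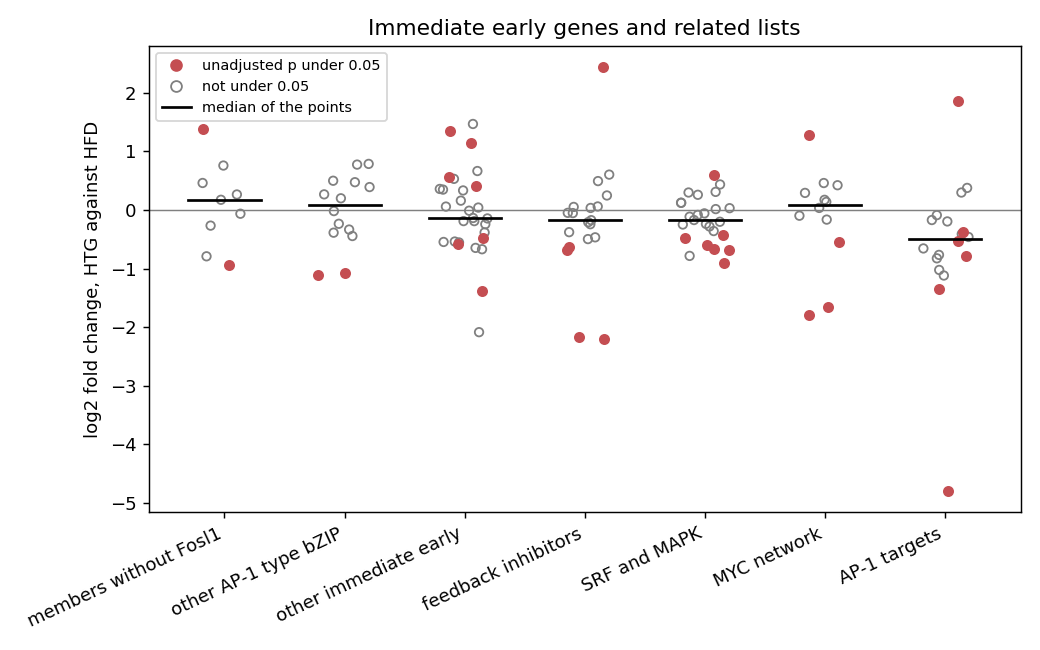
Log2 fold change of HTG against HFD (edgeR) for the genes tested in each list, with filled red points for an unadjusted p under 0.05, open points for the rest and a black line at the median of the points. The first column shows the 9 members other than Fosl1, and in the column of MAP kinase and SRF genes 6 of the 7 red points are below 0.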

How the data were processed

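RNA of 6 livers, 3 HFD and 3 HTG, was sequenced (poly(A) RNA, paired-end, strand-marked, per the methods). The authors deposited an estimated count, given as a whole number, and an FPKM value per gene and library. The submitters' processing notes name HISAT2, StringTie, SAMtools and the rat build mRatBN7.2, without versions or roles, while the rows are mouse genes, so coordinates are given as listed, without a build. Whether the counting used strand is not given in the sources used here.

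Counts were tested with edgeR 4.0.16 (filterByExpr, TMM, glmQLFit and glmQLFTest) in R 4.3.3, with p-values adjusted over all 18455 genes tested by the Benjamini-Hochberg method. In simulated counts, the median size of the estimated fold changes lay near the planted sizes. The share of planted changes that would be called is not given here. Alternatives were DESeq2 1.42.0, other filters and scalings, the replicate block, each library left out, limma 3.58.1 on log2(FPKM + 0.1) or log2(FPKM + 1) where the mean over libraries reached 1 FPKM, and counts divided by 4. Named were all members, up to 3 genes per list with the smallest p, genes at 0 in a group, and the 3 profiles closest to Fos, Jun, Egr1 and Myc. Other genes counted as called were named after their values were seen. The members and lists were chosen with earlier results of these data known. Motifs were searched in RefSeq promoters of GRCr8. The values of 1 list gene are not reported here.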

Additional observations from a re-analysis of the deposited data

How the results depend on the processing

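Over the 15 alternatives to the edgeR fit, the members gave 144 log2 fold changes, of which 135 kept the direction reported and 9 did not. The reversals were in Fos (from -0.42 to 0.83 with 1 library left out), Egr1 (from -1.31 to 0.97), Myc (from -0.11 to 0.54) and Fosl2 (from -0.28 to 0.14). Egr1 was also -0.30 with the replicate number as a block, -0.11 in limma on log2(FPKM + 0.1) and -0.10 in limma on log2(FPKM + 1). The cause was not tested. Members at an adjusted p under 0.05 numbered 0 in edgeR and 2 in DESeq2, where Fosl1 had no adjusted p. They numbered 1 with at least 10 counts in every library, 1 in either limma fit and 1 with counts divided by 4, where fewer genes were tested, and 0 to 1 with 1 library left out. Lower members at an unadjusted p under 0.05 went from 2 to 1 with at least 10 counts in every library and with counts divided by 4, since Fosl1 did not pass those filters. They were 3, with Ier3 added, in DESeq2, without a filter and without HTG library 3, and in both limma fits the 2 were Jun and Ier3, since Fosl1 was not fitted there. Higher members went from 1 to between 1 and 3 with 1 library left out. All genes at an adjusted p under 0.05 numbered 1 higher and 1 lower in edgeR, 1109 and 1358 in DESeq2, 86 and 76 without a filter, 369 and 315 with at least 10 counts in every library, 459 and 363 with counts divided by 4, 0 and 0 with the replicate block, 326 and 552 in limma on log2(FPKM + 0.1), and 234 and 419 without HTG library 1. The replicate numbers gave no sign of pairing in the correlations of deviations across genes. These were -0.08, -0.07 and 0.10 for same-numbered libraries and -0.12 to 0.18 for differently numbered ones. With 3 libraries per group, such correlations cannot settle whether the libraries were paired. The block left 1 higher and 2 lower members at an unadjusted p under 0.05. Of 180 counts of called genes in the 6 lists, 140 stayed within 1.5 times, and the widest ranges were 2 to 6 lower AP-1 targets and 1 to 5 higher further immediate early genes. Depth limits Fosl1 most, since 12 counts are its assumed limit and the HFD libraries held 13 to 105.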
